A study of Homo sapiens with 12 samples.

Results

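Semaphorins, ephrins, SLITs and netrins, with their receptors, were followed through the binding maps of a pair of SOX transcription factors in human germ cell tumour lines. Genes were taken by symbol: any peak whose nearest gene is a semaphorin of class 3 to 7, a plexin, a neuropilin, an ephrin, an Eph receptor, a SLIT, a ROBO, a netrin or an UNC5 receptor. The rule found 51 genes of the 12911 named in the lists, with 142 of the 17795 SOX2 peaks and 149 of the 17507 SOX17 peaks. The SOX2 chromatin immunoprecipitation (ChIP-seq) used 2102EP, which resembles embryonal carcinoma, and the SOX17 one used TCam-2, which resembles seminoma. Each antibody went onto 3 biological replicates with no treatment named, and each line gave 3 libraries of 2% input. The files analysed were 1 merged, annotated peak list per factor on hg38. Antibody and cell line changed together, so a difference between the lists is a difference between the experiments and cannot be told apart as factor or line. Each line is a single tumour-derived culture. The merged lists have no column for a single library, so the depth behind a peak is unknown and no value carries a replicate error. The intervals given are 95% Wilson intervals over peaks and cover counting error only.

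Guidance ligands steer growing axons, migrating cells and vessels by repelling or attracting them. Secreted class 3 semaphorins act on plexins, mostly with a neuropilin as co-receptor. Ephrins are cell-surface ligands of the Eph receptor tyrosine kinases, SLITs are secreted ligands of the ROBO receptors, and netrins repel cells through UNC5 receptors. In development SOX2 and OCT4 share a composite DNA site known as canonical, in which a SOX and an OCT site stand 1 base apart, and SOX17 with OCT4 is known for a compressed form with 0 bases between them.

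The sequences that carry these regions are shown first, read from the plus strand of the hg38 reference genome, 5′ to 3′, over the whole deposited peak. The first 3 lie in peaks that overlap between the lists and hold the canonical arrangement with an exact OCT site (ATGCAAAT or ATGCTAAT) and 1 mismatch allowed in the SOX site (CATTGT or CTTTGT). They are shown because the first pair are the 2 highest-scoring SOX2 peaks of any guidance gene. Capitals mark the composite site, which in the EPHB1 peak reads on the minus strand. They lie at chr17:9054798-9054906 for NTN1, chr7:84277804-84277926 for SEMA3A and chr3:135231742-135231865 for EPHB1.
NTN1: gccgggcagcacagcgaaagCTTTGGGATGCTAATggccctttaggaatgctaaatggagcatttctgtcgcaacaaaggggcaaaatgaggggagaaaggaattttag
SEMA3A: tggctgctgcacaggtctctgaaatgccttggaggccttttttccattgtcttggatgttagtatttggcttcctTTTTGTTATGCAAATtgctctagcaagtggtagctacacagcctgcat
EPHB1: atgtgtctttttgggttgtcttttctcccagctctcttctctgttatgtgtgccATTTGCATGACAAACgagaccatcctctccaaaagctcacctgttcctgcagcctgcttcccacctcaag

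The next pair are SOX17 peaks with the compressed arrangement, with an exact SOX site and 1 mismatch allowed in the OCT site. They are shown because they scored high among 5 such peaks, and neither overlaps a SOX2 peak. Capitals mark the composite site, on the minus strand in the EPHB3 peak. They lie at chr3:184603654-184603764 for EPHB3 and chr2:220937684-220937801 for EPHA4.
EPHB3: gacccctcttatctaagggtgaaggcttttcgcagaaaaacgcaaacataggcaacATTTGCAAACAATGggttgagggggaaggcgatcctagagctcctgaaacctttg
EPHA4: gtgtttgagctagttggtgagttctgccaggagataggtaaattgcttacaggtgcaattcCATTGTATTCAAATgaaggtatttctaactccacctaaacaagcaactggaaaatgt

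The last pair come from shared regions upstream of the annotated start sites of secreted semaphorins. Both regions stood in the upper 25% of both lists and do not hold the canonical arrangement above. The SEMA3A region lies inside the gene body all the same. Capitals mark exact SOX sites on either strand. A region at NRP2 ranked as high in both lists and has no exact SOX site within the peak, so it is not printed. They lie at chr7:83672256-83672424 for SEMA3E and chr7:84207190-84207298 for SEMA3A.
SEMA3E: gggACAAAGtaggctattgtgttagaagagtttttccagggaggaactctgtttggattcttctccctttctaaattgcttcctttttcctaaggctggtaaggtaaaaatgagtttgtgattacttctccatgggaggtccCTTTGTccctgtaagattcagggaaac
SEMA3A: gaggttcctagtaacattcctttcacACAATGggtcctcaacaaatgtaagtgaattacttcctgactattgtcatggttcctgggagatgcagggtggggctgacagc

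SOX2 and SOX17 peaks were annotated to most guidance genes. The rule matches 68 guidance genes in the RefSeq table, and 39 of them had a SOX2 peak, 43 a SOX17 peak, 32 both and 18 neither. Over all 19137 protein-coding genes, 32.8% had a SOX2 peak, 34.8% a SOX17 peak, 21.8% both and 54.1% neither. The name rule also matches UNC50, UNC5CL and the pseudogene ROBO2P1, which have no known guidance role. UNC50 alone of them had a peak, in the SOX17 list, within intron 14 of the neighbouring gene MGAT4A. It is the 51st gene of the rule, and its peak stood at percentile 90.45, the percentile being the rank by the authors' score within its own list, with 100 the highest. That peak is among the 149 SOX17 peaks described below, while counts by family leave it out.

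Guidance genes lie in large loci, and the number of peaks followed that size. The locus, taken as the stretch between the midpoints to the neighbouring start sites, had a median of 93.3 kb for guidance genes and 48.3 kb for protein-coding genes. Per megabase of locus, guidance genes had 6.84 SOX2 and 7.13 SOX17 peaks, beside 6.34 and 6.39 over protein-coding genes. Of the 68 genes, 30 were among the 4784 protein-coding genes with the largest loci, over 104 kb. There 27 of the 30 had a SOX2 peak and 28 a SOX17 peak, where 64.2% and 65.4% of the 4784 did. These 30 genes carried 4.2 peaks per gene in each list, beside 1.52 and 1.45 over the 4784. Their loci reach far beyond the 104 kb bound, up to 2915022 bp for EPHA3. In loci up to 22.8 kb, 1 of 10 guidance genes had a SOX2 peak and 2 a SOX17 peak, beside 10.4% and 11.3%. Between 22.8 and 48.3 kb 2 and 3 of 13 did, beside 20.6% and 23.4%. Between 48.3 and 104 kb 9 and 10 of 15 did, beside 35.8% and 39.3%. Across the 68 genes the rank correlation of locus size and total peaks was 0.86 (Spearman's rho, a description over genes that share the same lists), and over protein-coding genes 0.54.

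**Figure D1:**
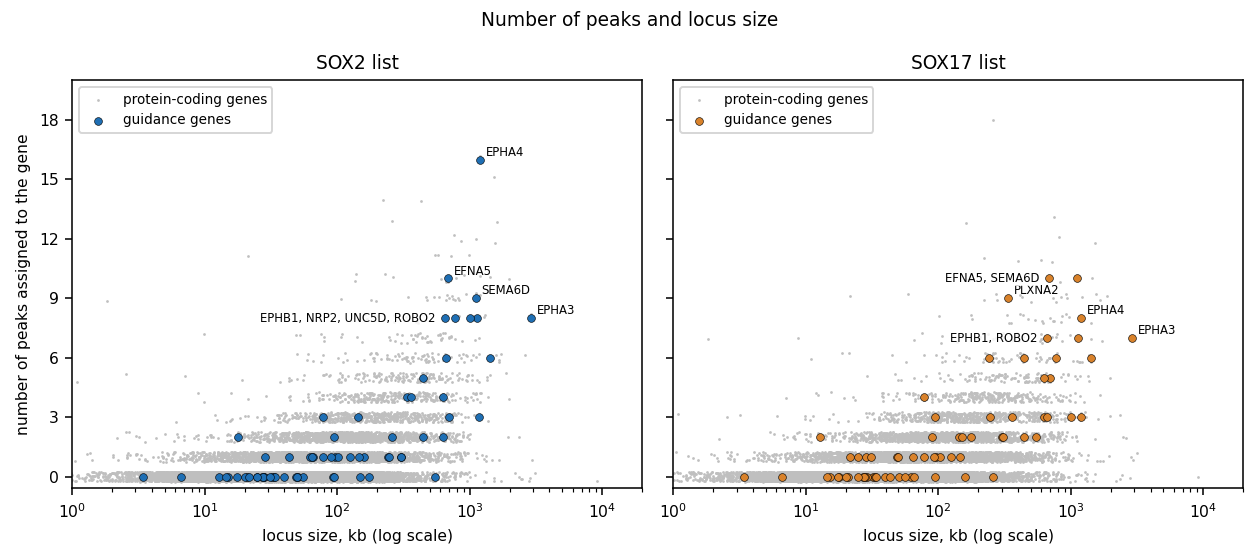
Number of assigned peaks (vertical axis) against locus size in kb on a log scale (horizontal axis) for the SOX2 list (left) and the SOX17 list (right). Grey points are protein-coding genes, spread slightly in height so that they can be seen, and coloured points are the 68 guidance genes, of which those with 7 or more peaks are named; EPHA4 stands highest in the SOX2 list with 16 peaks.

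Peaks of guidance genes lay farther from start sites than peaks as a whole. A larger locus leaves room for longer distances, and no peaks from loci of like size stand beside these values. The median distance from the annotated transcription start site (TSS) was 108 kb for SOX2 and 99.8 kb for SOX17, beside 40.4 and 36.5 kb over all peaks. Of the SOX2 peaks, 68.3% (interval 60.3 to 75.4) were over 50000 bp away, beside 44.3% of all SOX2 peaks, and of the SOX17 peaks 62.4% (54.4 to 69.8), beside 41.5%. Peaks over 500000 bp away made up 8.45% and 10.7%, beside 2.56% and 2.09%. Within 1000 bp of a TSS stood 0 of 142 SOX2 peaks, where the interval reaches 2.63% and 3.57% of all SOX2 peaks lay that close. In the SOX17 list 1 of 149 did, beside 4.57%. That peak is at the promoter of SEMA4G, a transmembrane semaphorin, 432 bp upstream of its annotated TSS, and it scored low, at percentile 7.19. It lies inside the gene body as placed by GENCODE, so upstream refers here to the annotated TSS alone.

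Shares in introns stood near the background, and shares in repeats below it. Introns held 49.3% of SOX2 and 49.0% of SOX17 peaks, beside 43.5% and 44.0% of all peaks. Annotated repeats held 27.5% (20.8 to 35.3) of the SOX2 peaks, beside 41.4%, and 34.9% (27.7 to 42.8) of the SOX17 peaks, beside 43.1%. LTR elements held 15.5% of the SOX2 peaks (10.5 to 22.3), beside 25.5%, and 16.8% of the SOX17 peaks (11.6 to 23.6), an interval that includes the 22.6% of all SOX17 peaks. An exact SOX site within 100 bp of the peak centre was found in 82 of 142 SOX2 peaks (57.7%, 49.5 to 65.6; all peaks 60.5%) and in 89 of 149 SOX17 peaks (59.7%, 51.7 to 67.3; all peaks 67.1%). Median score percentiles were 55.6 for SOX2 and 48.2 for SOX17, where the whole list has 50 by construction, and 12 SOX2 (8.45%) and 11 SOX17 peaks (7.38%) fell in the highest score decile, beside 10.0% and 9.96%. Within 50000 bp of the TSS the SOX2 median was 72.4 over 45 peaks, beside 51.6 for all SOX2 peaks that close. The SOX17 median there was 49.5 over 56 peaks, beside 51.5.

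Among the ligands, the semaphorins were the largest family. Of 20 semaphorin genes, 11 had a SOX2 peak, 13 a SOX17 peak, 9 both and 5 neither, with 33 SOX2 and 36 SOX17 peaks. The secreted class 3 genes had 15 peaks in each list over 4 and 5 of their 7 genes. Class 4 had 5 and 5 peaks, class 5 had 1 and 2, and class 6 had 12 and 14. Of 8 ephrins, 3 had a SOX2 and 3 a SOX17 peak, and EFNA5 held 10 of the 13 SOX2 and 10 of the 12 SOX17 peaks. The SLIT genes had 4 and 3 peaks, nearly all at SLIT2, and the netrins 2 and 4. In all, 35 ligand genes had 52 SOX2 and 55 SOX17 peaks.

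The 33 receptor genes had 90 SOX2 and 93 SOX17 peaks. Eph receptors led with 50 and 42 peaks over 11 and 9 of 14 genes. EphA receptors had 38 and 29 peaks, and EphB receptors 12 and 13. Plexins had 9 SOX2 and 19 SOX17 peaks, of which 5 and 14 were at A plexins, while none of the 3 B plexins, whose loci together cover 0.083 Mb, had a peak in either list. Both neuropilins had peaks in both lists, 9 and 12 in all. ROBO genes had 12 and 13 peaks and UNC5 genes 10 and 7. The 18 guidance genes with a peak in neither list were EFNA2, EFNA3, EFNA4, EFNB3, EPHA10, EPHB2, NTN3, PLXNA3, PLXNB1, PLXNB2, PLXNB3, ROBO4, SEMA3B, SEMA3F, SEMA4A, SEMA5A, SEMA7A and SLIT1.

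**Figure D2:**
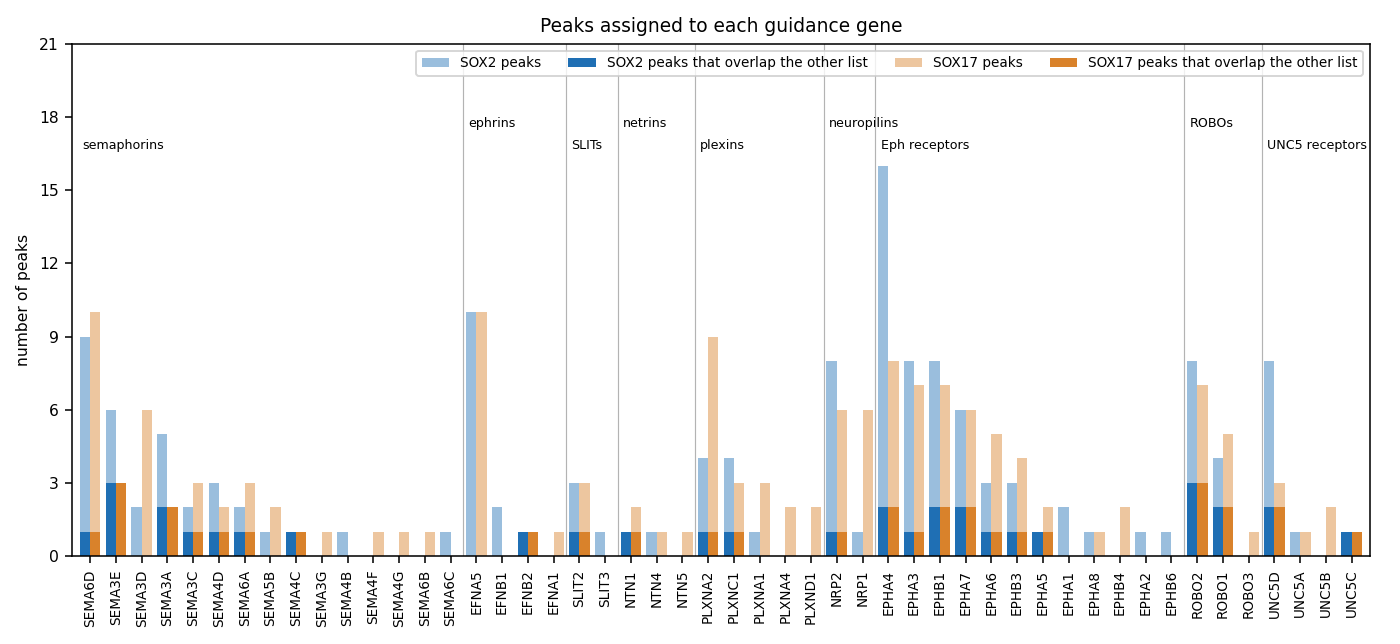
Peaks assigned to each of the 50 guidance genes with a peak in either list, grouped by family, with the number of peaks on the vertical axis. Pale bars are all peaks of SOX2 (blue) and SOX17 (orange) and dark bars are those that overlap a peak of the other list; EFNA5 has 10 peaks in each list and no dark bar.

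NTN1, which encodes the secreted ligand netrin-1, carried the highest SOX2 peak of the group. It lies in intron 2, 33310 bp downstream of the TSS, with a score of 347.27, rank 54 and percentile 99.7. A SOX17 peak overlaps it at percentile 25.96. A further SOX17 peak of NTN1, 42634 bp downstream in the same intron, stood at percentile 88.01 and overlaps no SOX2 peak. At the shared region the SOX2 peak stood 73.74 percentile points above the SOX17 peak, the second widest gap among shared guidance regions.

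SEMA3A, a secreted repellent that acts through neuropilin-1 and A plexins, had 5 SOX2 and 2 SOX17 peaks, and both SOX17 peaks overlap SOX2 peaks. All of them lie inside its gene body as placed by GENCODE, so upstream refers here to the annotated TSS alone. Upstream of that TSS, 3 SOX2 peaks stood in the highest score decile. The first, at 82964 bp, had score 272.63, rank 122 and percentile 99.32. The others were at 33803 bp (rank 187, percentile 98.95) and at 12343 bp (rank 665, percentile 96.27). The first lies in an MSTA-int and the second in an LTR33 element, both of them LTR repeats. The SOX17 peaks at the first and the last of these stood at percentiles 94.86 and 86.03, while the LTR33 region has no SOX17 peak. The other SOX2 peaks, in introns 3 and 11, were at percentiles 46.49 and 3.89.

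SEMA3E, a secreted semaphorin that binds PLXND1 directly, had 6 SOX2 peaks and 3 SOX17 peaks, and all 3 of the latter overlap SOX2 peaks. The region 23177 bp upstream ranked high in both lists, at percentile 92.89 for SOX2 and 94.21 for SOX17. The other shared regions were 36005 bp upstream (74.35 and 52.28) and in intron 4 within an LTR7 element (80.44 and 42.15). Its 3 SOX2 peaks without a SOX17 partner stood between percentiles 76.65 and 85.89, all in the upper part of the list. PLXND1, its receptor, had no SOX2 peak and 2 SOX17 peaks upstream, at percentiles 89.15 and 80.65, the latter in an LTR5_Hs element.

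The class 3 genes SEMA3C, SEMA3E, SEMA3A and SEMA3D are neighbours on chromosome 7. The stretch chr7:80242538-85687056, 5.44 Mb long, held 41 SOX2 and 27 SOX17 peaks, of which 15 and 14 were assigned to these genes and 9 in each list overlapped. In the highest score decile were 6 of the 41 SOX2 peaks and 2 of the 27 SOX17 peaks. Over the whole lists, 24.9% of SOX2 and 25.3% of SOX17 peaks overlapped, and 10.0% and 9.96% were in the highest decile. SEMA3C, also a secreted ligand, had a shared region 258319 bp upstream in an MSTA-int element, at percentile 83.68 for SOX2 and 4.63 for SOX17, the widest gap of any shared guidance region. SEMA3D had 2 SOX2 peaks (percentiles 54.66 and 62.89) and 6 SOX17 peaks (from 9.24 to 77.28, median 33.1), none of them shared, with 18507 bp between the closest centres.

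SEMA6D, a transmembrane semaphorin, had 9 SOX2 and 10 SOX17 peaks over a locus of 1107559 bp, and a single pair overlaps. That pair lies in intron 1, 5160 bp downstream of the TSS, at percentile 88.22 for SOX2 and 55.76 for SOX17. The other SOX2 peaks ran from percentile 4.66 to 80.33 and the other SOX17 peaks from 17.11 to 68.37. The highest SOX17 peak lay 531755 bp upstream, so the best peak of each list is a different region.

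EFNA5, a cell-surface ephrin anchored by a lipid, had 10 SOX2 and 10 SOX17 peaks and none in common. The closest centres lay 1655 bp apart. SOX2 percentiles ran from 0.31 to 94.28 with a median of 31.83, and SOX17 percentiles from 37.57 to 86.03 with a median of 60.75. The highest SOX2 peak is in intron 1, 81222 bp downstream (rank 1018), and the highest SOX17 peak in intron 2, 282892 bp downstream. The most distant upstream peak of each list lies in intron 7 of the neighbouring gene FBXL17. EFNB2, the transmembrane ephrin that marks arterial endothelium, had 1 peak in each list, at the same place in intron 1, at percentile 88.27 for SOX2 and 54.43 for SOX17.

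SLIT2, the secreted ligand of ROBO1 and ROBO2, had 3 peaks in each list. SOX2 percentiles were 43.16, 3.34 and 26.75 and SOX17 percentiles 11.2, 85.1 and 17.11, in order along the locus from upstream. The shared region, 372316 bp upstream, was the lowest of all shared guidance regions by mean percentile. No SLIT2 peak stood in the highest decile of either list.

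Among the receptors, EPHA4, which binds ephrins of both the A and the B class, had the most SOX2 peaks of any guidance gene, 16, beside 8 SOX17 peaks. SOX2 percentiles ran from 6.96 to 89.12 with a median of 48.22, and SOX17 percentiles from 6.23 to 83.4 with a median of 51.97. The gene has a locus of 1195791 bp. SOX2 peaks flank its TSS, 2550 bp upstream (percentile 64.1) and 2257 bp downstream (72.6), where no SOX17 peak was assigned. The overlapping regions were 218930 bp upstream (55.63 for SOX2 and 55.76 for SOX17) and in intron 8 (21.63 and 48.18). The SOX17 peak with the compressed site, 634616 bp downstream, has a SOX2 peak beside it at 635574 bp that does not overlap it and stood at percentile 6.96.

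**Figure D3:**
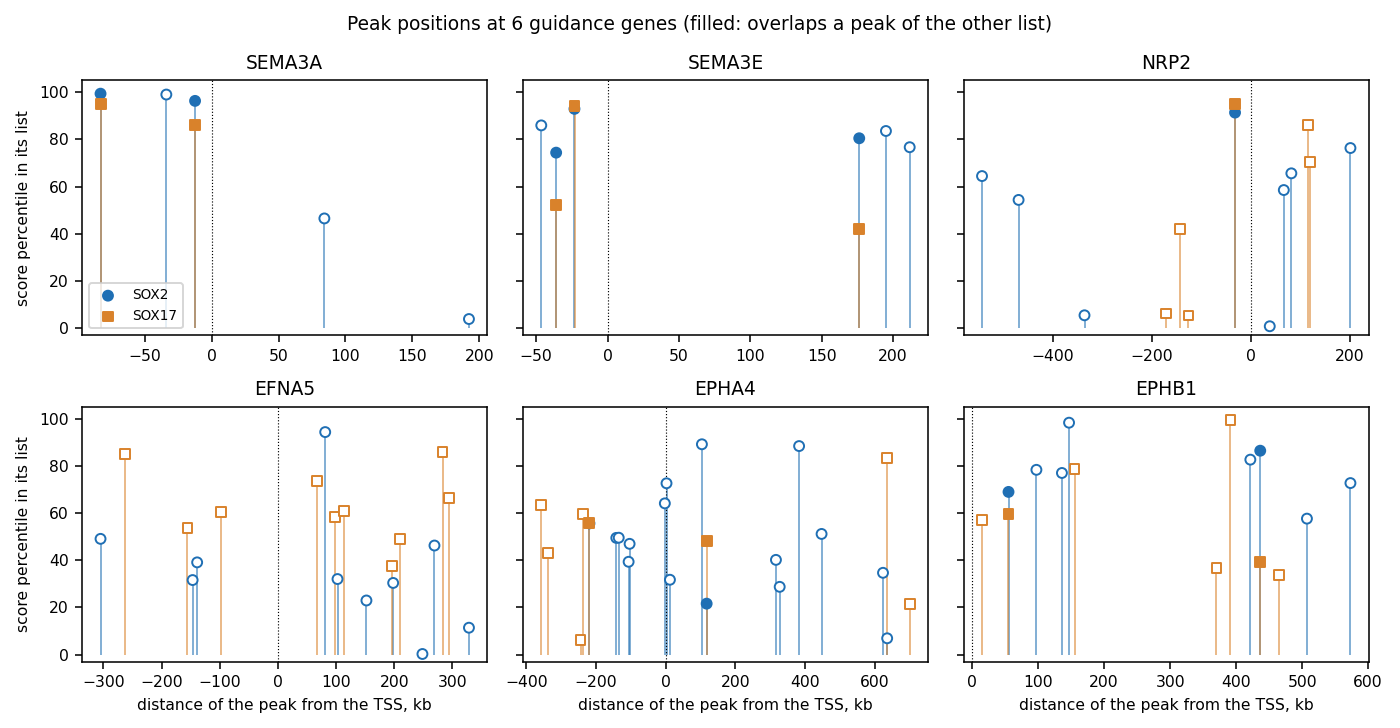
Score percentile of each peak in its own list (vertical axis) against its distance in kb from the annotated TSS (horizontal axis, dotted line at 0) for SEMA3A, SEMA3E, NRP2, EFNA5, EPHA4 and EPHB1, with SOX2 as blue circles and SOX17 as orange squares. Filled symbols overlap a peak of the other list; all 20 symbols of EFNA5 are open, and both SOX17 squares of SEMA3A are filled.

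EPHB1, a receptor of B ephrins, stood near the top of both lists, but at different introns. Its best SOX2 peak is in intron 2, 146746 bp downstream of the TSS (rank 311, percentile 98.26). Its best SOX17 peak is in intron 10, 391432 bp downstream (score 211.33, rank 72, percentile 99.59), the highest SOX17 peak of the whole group. Neither overlaps a peak of the other list. Of 8 SOX2 and 7 SOX17 peaks, 2 regions were shared, in intron 1 (percentiles 68.95 and 59.42) and in intron 12 within a MER126 element (86.4 and 39.46), the latter being the EPHB1 sequence printed above.

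EPHB3, a receptor that sorts cells in the intestinal crypt, had 3 SOX2 and 4 SOX17 peaks. The SOX17 peak with the compressed site, 41910 bp downstream, stood at rank 477 and percentile 97.27. A SOX2 peak at 43000 bp stood at percentile 68.21 without overlapping it. The shared region is in intron 1, at percentile 72.42 for SOX2 and 88.3 for SOX17.

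EPHA6 had 3 SOX2 and 5 SOX17 peaks. Its highest SOX2 peak, at percentile 91.43, is in a simple repeat of intron 5 and overlaps the SOX17 peak at 48.18. EPHA3 had 8 SOX2 peaks (percentiles 17.62 to 86.63) and 7 SOX17 peaks (24.86 to 95.32). Its highest SOX17 peaks lay 842730 bp and 908481 bp downstream (95.32 and 91.48), and 1 region was shared, 782056 bp downstream (86.63 for SOX2 and 34.65 for SOX17). A further SOX17 peak was assigned to EPHA3 from 2294731 bp away, the largest distance in the SOX17 list. EPHA7 had 6 peaks in each list with 2 shared, 1 of them in an LTR5_Hs element (60.46 for SOX2 and 75.54 for SOX17).

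The neuropilins, co-receptors of class 3 semaphorins, differed in their peaks. NRP2 had 8 SOX2 and 6 SOX17 peaks. Its shared region 32016 bp upstream stood at percentile 91.31 for SOX2 and 95.04 for SOX17, the highest mean percentile of any shared receptor region. Of the other NRP2 peaks, 3 SOX2 and 3 SOX17 peaks lie in introns of the neighbouring gene PARD3B. NRP1 had 1 SOX2 peak, 148811 bp upstream (percentile 57.37), and 6 SOX17 peaks (11.2 to 81.39), of which 4 lie in its introns, and none was shared.

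PLXNC1, the plexin that binds SEMA7A, had 4 SOX2 peaks, of which 3 stood above percentile 95: 16593 bp downstream in intron 1 (96.92), in intron 20 (96.13) and 21015 bp downstream in intron 2 (95.42). The fourth was at 3.94. A SOX17 peak overlaps the one in intron 20, whose distance of 1204 bp is counted from a shorter non-coding transcript inside the gene. The 3 SOX17 peaks were at percentiles 38.53 to 49.96, so its high ranks are in the SOX2 list. PLXNC1 is on chromosome 12, where the median percentile of all peaks was 63.6 for SOX2 and 64.6 for SOX17, and the part of the chromosome in these ranks was not tested.

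PLXNA2, an A plexin that signals for class 3 and class 6 semaphorins, had 4 SOX2 and 9 SOX17 peaks with 1 shared. SOX17 percentiles ran from 37.57 to 84.13 with a median of 65.51, and SOX2 percentiles from 0.71 to 82.33. The shared region, 130133 bp upstream, stood at 82.33 for SOX2 and 40.38 for SOX17. PLXNA1 had 1 SOX2 peak at percentile 2.56 and 3 SOX17 peaks, the highest at 91.94. That peak lies 137695 bp upstream in intron 4 of CHCHD6, the neighbouring gene.

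ROBO1 and ROBO2, the SLIT receptors, had 4 and 8 SOX2 peaks and 5 and 7 SOX17 peaks, with 2 and 3 shared. The highest ROBO1 peak was a SOX17 peak at percentile 91.67 in a Tigger1 element of intron 2. At the shared region in a MER9a3 element of ROBO1, the SOX2 peak stood at 17.56 and the SOX17 peak at 74.27. All peaks assigned to ROBO2 lie inside its gene body as placed by GENCODE 44. Its shared region 383174 bp upstream of the annotated TSS had the opposite order, 82.75 for SOX2 and 21.45 for SOX17. The other shared regions of ROBO2 were at 44.14 and 42.15 and at 32.48 and 57.1. UNC5D, a receptor known to bind netrins and FLRT proteins, had 8 SOX2 peaks (28.4 to 73.68) and 3 SOX17 peaks (27.07 to 73.92) with 2 shared, and UNC5C had 1 shared region, in intron 1 (84.01 and 70.65).

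A region counts as shared where a SOX2 and a SOX17 peak have at least 1 bp in common. Guidance genes had 34 shared regions in 24 genes, and all 34 were assigned to the same gene in both lists. They are 23.9% of the SOX2 peaks (17.7 to 31.6), beside 24.9% of all SOX2 peaks, and 22.8% of the SOX17 peaks (16.8 to 30.2), beside 25.3%. Among peaks over 50000 bp from the TSS, 21.6% of the SOX2 peaks (14.6 to 30.8) and 22.6% of the SOX17 peaks (15.3 to 32.1) were shared, beside 23.4% and 25.4%. Of the 32 genes with peaks in both lists, 24 had a shared region, where 57.4% of such protein-coding genes did. A gene with more peaks has more places for an overlap, and this comparison by gene was not matched for peak number. In 8 genes the lists had peaks with none in common: EFNA5, EPHA8, NRP1, NTN4, PLXNA1, SEMA3D, SEMA5B and UNC5A, with closest centres between 1655 and 174248 bp apart.

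The SOX2 percentile was the higher in 22 of 34 shared guidance regions (64.7%, interval 47.9 to 78.5). The interval includes the 52.6% of all 4426 shared regions. For guidance regions the median of SOX2 minus SOX17 percentile was 13.9, beside 1.84 over all shared regions. Regions above percentile 75 in both lists numbered 4 of 34 (11.8%, all shared regions 17.9%): both SEMA3A regions, SEMA3E and NRP2. The percentiles were over 50 points apart in 6 regions (17.6%, and 17.6% of all): NTN1, SEMA3C, ROBO2, EPHA3, EPHA7 and ROBO1, of which ROBO1 alone was higher in the SOX17 list. Among SOX2 peaks of guidance genes the median percentile was 76.6 where shared and 49.7 where not, beside 65.0 and 45.5 over all SOX2 peaks. Among SOX17 peaks it was 49.1 and 47.3, beside 62.5 and 45.7. Shared SOX17 peaks of guidance genes thus had a median close to that of the unshared ones.

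**Figure D4:**
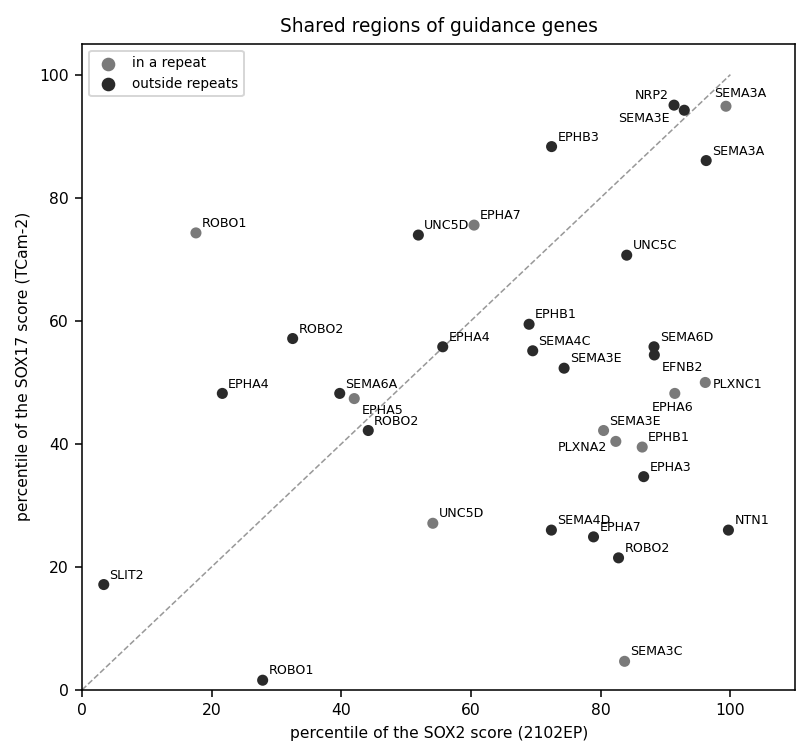
Score percentile in the SOX17 list (vertical axis) against that in the SOX2 list (horizontal axis) for the 34 shared regions of guidance genes, with repeats in grey and the dashed line at equal percentiles. The regions of SEMA3A, SEMA3E and NRP2 sit at the upper right, and 22 of the 34 lie below the line, on the SOX2 side.

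The largest differences in peak number between the lists were at EPHA4 (16 SOX2 and 8 SOX17), UNC5D (8 and 3), NRP1 (1 and 6), PLXNA2 (4 and 9) and SEMA3D (2 and 6). Over the 68 genes the numbers of the lists had a rank correlation of 0.74 (Spearman's rho, a description, with locus size common to both), and over protein-coding genes 0.53. Of genes with peaks in a single list, 7 had SOX2 peaks alone (EFNB1, EPHA1, EPHA2, EPHB6, SEMA4B, SEMA6C and SLIT3) and 11 SOX17 peaks alone (EFNA1, EPHB4, NTN5, PLXNA4, PLXND1, ROBO3, SEMA3G, SEMA4F, SEMA4G, SEMA6B and UNC5B). Over protein-coding genes 11.0% had SOX2 peaks alone and 13.1% SOX17 peaks alone. These 18 genes had 1 or 2 peaks each.

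Composite SOX and OCT sites were few. With an exact SOX site and at most 1 OCT mismatch within 100 bp of the peak centre, on either strand, the canonical arrangement was in 3 of 142 SOX2 peaks (2.11%, interval 0.721 to 6.03), beside 1.66% of all SOX2 peaks, and in 0 of 149 SOX17 peaks, beside 0.366%. The compressed arrangement was in 0 SOX2 peaks, beside 0.0787%, and in 5 SOX17 peaks (3.36%, 1.44 to 7.61), beside 2.77%. These shares stood near those of all peaks. The canonical ones were at EPHA4, 141854 bp upstream (percentile 49.48) and 623628 bp downstream (34.69), and at SEMA6D, 450478 bp upstream (16.95). Of the compressed ones, 4 were at EPHB3 and EPHA4, as printed above, at PLXNA2, 191131 bp upstream (44.8), and at EPHA7, 34659 bp upstream (40.38). None of these 8 peaks was shared. EPHA4 was the 1 gene of these with both kinds, and its canonical SOX2 peak at 623628 bp and compressed SOX17 peak at 634616 bp both lie downstream of the gene.

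With 1 mismatch allowed in the SOX site and an exact OCT site instead, the canonical arrangement was in 5 SOX2 peaks, beside 2.08% of all, and in 3 SOX17 peaks, beside 0.531%. The 3 SOX17 peaks are the overlapping partners of SOX2 peaks at NTN1, SEMA3A and EPHB1, whose sequences stand first above, so the same bases were counted in both lists. The remaining SOX2 peaks were at ROBO2, 17834 bp upstream of the annotated TSS but inside the gene body (72.85), and at EPHA4, 2550 bp upstream (64.1). The compressed arrangement was in 3 SOX17 peaks, at ROBO3 (78.37), PLXNA2 (37.57) and SEMA6D (21.45), beside 1.86%, and in 0 SOX2 peaks, beside 0.225%. A match is a description of the letters and does not show that OCT4 was bound.

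The nearest-gene assignment sets which peaks are counted. Of 153 peaks of the rule that the deposited annotation places inside a transcript, 133 lie in the gene they were assigned to. The other 20, the UNC50 peak among them, lie in a neighbour. Peaks inside the body of a guidance gene but assigned to another gene numbered 38 in each list. Counted by gene body whatever the assignment, 30 guidance genes had a SOX2 peak and 37 a SOX17 peak. No count by gene body over all protein-coding genes stands beside these, so whether they differ from the background is unknown.

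Other genes of guidance signalling, such as the DCC receptor, cytoskeletal effectors and adaptors, were taken from a list of 67. Of these, 44 had a SOX2 peak, 43 a SOX17 peak, 33 both, 13 neither and 22 a shared region, with 98 and 107 peaks and a median locus of 106 kb. Over all protein-coding genes 32.8% had a SOX2 peak, 34.8% a SOX17 peak, 21.8% both and 54.1% neither, with a median locus of 48.3 kb. A shared region was found in 2393 of the 19137 protein-coding genes, and in 57.4% of those with peaks in both lists. Among the 4784 with loci over 104 kb, a bound that many of the 67 fall below, 64.2% had a SOX2 peak and 65.4% a SOX17 peak. The highest were SOX17 peaks of SRGAP1, a GTPase-activating protein downstream of SLIT and ROBO (percentile 98.94), and of FLRT2, an UNC5 ligand (98.51). Next came a SOX2 peak of ITSN1, a scaffold that works with EphB receptors (97.13), SOX17 peaks of the adaptor NCK2 (96.91) and the chemokine receptor CXCR4 (96.74), and a SOX2 peak of the kinase PAK1 (95.28). In the SOX2 list the best peaks of SRGAP1, FLRT2, NCK2 and CXCR4 were at 24.85, 88.58, 80.46 and 37.58. In the SOX17 list those of ITSN1 and PAK1 were at 62.46 and 15.88.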

How the data were processed

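SOX2 ChIP-seq of 2102EP and SOX17 ChIP-seq of TCam-2, with 2% input from both lines, gave 12 libraries, 3 in each of 4 groups. Per the labels' protocols, cells were fixed in a crosslinking reagent and then formaldehyde, and chromatin was cut by enzyme. The series' design text names 75 bp single-end reads, CLC Genomics Workbench 12 for mapping to hg38, and HOMER, which is also in the submitters' processing notes. How peaks were called, and whether input was used, is not stated in those sources.

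The authors deposited 1 merged, annotated list per factor, with a peak score whose scale is not stated, so it was used only as a rank within its list. Per the file headers, the authors gave hg38 positions, the distance to the nearest TSS in bp, the gene at that TSS, the annotation class and any repeat. Before this work 2 lines of each list had been emptied. Every peak name ends in 3, and no source used here says why. The lists hold no value per library, so no test was run. Counts stand beside the same share over all peaks or genes where that share was computed.

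Genes were matched to RefSeq (GRCh38) and placed with GENCODE 44. The locus used 27452 placed genes, 19137 of them protein-coding, which named 93.2% of SOX2 and 93.5% of SOX17 peaks. Of the 291 peaks of the rule, UNC50 included, 273 lay within 1000 bp of the deposited distance to a GENCODE TSS of the same gene. SOX sites were CATTGT or CTTTGT and OCT sites ATGCAAAT or ATGCTAAT, read on both strands, so that a composite site includes a SOX site. Steps were tested on simulated data. Python 3.11.15, pandas 2.3.3, numpy 2.4.6, scipy 1.17.1, pysam 0.24.0 and matplotlib 3.10.9 were used.

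The genes and lists were chosen with earlier results of these data known. Named genes were the 10 with the highest best percentile per list, those of the 10 highest shared regions, those with a peak within 1000 bp of the TSS, the 5 with most peaks or the largest difference in number, and those with a composite site, plus 6 other pathway genes. The values of 1 region are not reported here. SLIT2, EPHA7, SEMA3C, PLXND1, the genes of the widest gaps and those found under other mismatches were named after their values were seen. Alternatives were other overlaps, distances, windows and mismatches, the higher-scoring 50% of each list and peaks outside repeats.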

Additional observations from a re-analysis of the deposited data

How the results depend on the processing

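Of the alternatives tried, 39 left the counts and medians within 1.5 times the reported value or within the spread over peaks, and 11 did not. For median percentiles this spread was 28.9 for SOX2 and 27.2 for SOX17. It is the spread of single peaks and not the error of a median, so the bound is wide. With peaks within 50000 bp of the TSS alone, 17 genes had peaks in both lists, where 32 did over all distances. With the higher-scoring 50% of each list, 12 genes had a shared region, where 24 did. Such restrictions can only lower a count, and no share of all protein-coding genes under them stands beside these counts. Taking the best peak of each gene raised the SOX17 median percentile from 48.2 to 76.4, where all genes gave 61.5. The best of several peaks cannot stand below their median. It also depends on the number of peaks per gene, which was not matched between guidance genes and all genes. With no mismatch in the OCT site, the canonical count in SOX2 peaks went from 3 to 0 and the compressed count in SOX17 peaks from 5 to 0. With 1 mismatch in the SOX site and none in the OCT site these were 5 and 3, and the canonical count in SOX17 peaks went from 0 to 3. With 1 mismatch in each site they were 14, 18 and 5. The looser and stricter letters themselves set how many peaks can match. The alternatives by gene body, without UNC50, UNC5CL and ROBO2P1, without EPHA4, without EFNA5 and SEMA6D, and with SOX mismatches were chosen after seeing the data.

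No paired analysis was possible because the deposited lists are merged and carry no column of a single library, and for the same reason no library was left out. Depth is unknown, and a site that was not called cannot be told apart from one without binding. The nearest gene need not be the gene a region acts on. Peaks in repeats depend on the handling of reads with several map positions, on which the sources used here are silent.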

Other observations

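Several guidance genes without an assigned peak, or with few, hold peaks inside their bodies that were assigned to a small RNA or antisense gene lying within them. SLIT3, a secreted ligand, had 1 assigned SOX2 peak, while its body held 7 SOX2 and 8 SOX17 peaks assigned to MIR218-2, MIR585 and LOC728095. The highest of these was a SOX17 peak assigned to MIR218-2, at percentile 94.78. SEMA5A, a transmembrane semaphorin with no assigned peak, held 3 SOX2 and 2 SOX17 peaks in its body, assigned to MIR4636 and SEMA5A-AS1. EPHB2, also with no assigned peak, held 1 SOX2 and 2 SOX17 peaks assigned to MIR4253 and MIR4684. PLXNA4, with 2 assigned SOX17 peaks, held 3 SOX2 and 5 SOX17 peaks assigned to LOC101928807, the highest at percentile 90.22 for SOX17.

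The body of ROBO2 held 3 SOX2 peaks assigned to ZNF717, the highest at percentile 97.4, above any peak assigned to ROBO2 itself. UNC5B had no assigned SOX2 peak, while UNC5B-AS1, its antisense neighbour, had 2 in each list, the highest at percentile 92.17 in the SOX17 list. In the body of UNC5C 3 SOX17 peaks were assigned to BMPR1B, up to percentile 92.01. Peaks in LTR7 elements were at SEMA3E and SEMA6D and peaks in LTR5_Hs at EPHA7 and PLXND1, while LTR elements as a whole held a smaller share of guidance peaks than of all peaks (15.5% beside 25.5% for SOX2 and 16.8% beside 22.6% for SOX17, where the interval of 11.6 to 23.6 includes the latter). NTN4 had peaks in LTR7Y, where the SOX2 peak (percentile 83.62) and the SOX17 peak (24.86) lie 5598 bp apart. These genes were chosen after their values were seen, and no test was run on them.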
